A study of Mus musculus with 10 samples.

Results

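The ligands and receptors of the FGF, EGF and HGF families, with a few VEGF and PDGF ligands, were examined in mouse liver tumors. They were taken by gene symbol, with no threshold on a measured value: every Fgf and Fgfr gene of the table other than *Fgf21*, the EGF-like ligands *Egf*, *Tgfa*, *Areg*, *Ereg*, *Btc* and *Hbegf*, the ERBB receptors, *Hgf*, *Met*, *Vegfb*, *Vegfc*, *Pdgfa* and *Pdgfb*. This gave 42 of the 52459 genes, 32 ligands or FGF homologous factors and 10 receptors. Bulk RNA-seq was available from 5 *MYC*-HCC and 5 *MYC*/*Twist1*-HCC, hepatocellular carcinomas of mice in which doxycycline withdrawal switched on the transgenes. All animals carried LAP-tTA, which places the tetracycline transactivator under a liver-enriched promoter, and TRE-*MYC*. The *MYC*/*Twist1* mice carried TRE-*Twist1*/Luc in addition, so that *Twist1* and firefly luciferase came together, and no liver without a *MYC* transgene was included. Per the study's methods the mice were of FVB/N background and transgenes were induced in young adults. The labels give no age at harvest, and they do not say whether each tumor came from a separate mouse. Values were FPKM, reads per gene scaled to transcript length and to sequencing depth, so levels could be set side by side between genes.

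FGFs, EGF-like factors, HGF, VEGFs and PDGFs are extracellular factors that bind receptor tyrosine kinases. Binding brings receptor chains together, and the phosphorylated chains recruit adaptors that feed the RAS to ERK and the PI3K to AKT cascades. In liver, hepatocytes carry FGFR4, EGFR, ERBB3 and MET, whereas HGF is made mainly by stellate and endothelial cells, and intestinal FGF15 acts on hepatocyte FGFR4 with its co-receptor beta-Klotho to lower bile acid synthesis. The comparison asked whether any of these genes differed between tumors driven by *MYC* alone and tumors that also expressed *Twist1*.

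The receptors were expressed and most of the ligands were not. Of the 10 receptors, 8 reached 0.5 FPKM in at least 5 libraries, as did 7 of the 32 ligands and homologous factors. The other 27 genes stayed under this filter. No gene of the set passed an adjusted p of 0.05 in limma (two-sided, Benjamini-Hochberg over 12146 genes), where 0.0247% of all genes tested did so. At an unadjusted p under 0.05, 1 of the 15 tested was higher in *MYC*/*Twist1*-HCC (*Fgfr4*) and 0 were lower, against 16.3% of all genes in either direction. In none of the 15 did the 2 groups of libraries fail to overlap, against 4.02% of all genes. The log2 differences, *MYC*/*Twist1*-HCC minus *MYC*-HCC, were positive for 12 and negative for 3, with a median of 0.06 beside -0.04 over all genes. Among the positive ones, *Fgfrl1*, *Fgfr3*, *Vegfb*, *Fgfr1* and *Pdgfb* had only 0.01 to 0.06. The share of positive differences over all genes was not counted, so the 12 cannot be read as many or few.

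The *Twist1* level went with the labels, at 0 to 0.29 FPKM in *MYC*-HCC and at 1.62 to 77.19 FPKM in *MYC*/*Twist1*-HCC, transgene and endogenous transcripts not being told apart. The estimated depth was 19160000 to 23450000 reads in *MYC*-HCC and 21150000 to 23760000 reads in *MYC*/*Twist1*-HCC, so that 1 read on a transcript of 1 kb was worth 0.0421 to 0.0522 FPKM. The *MYC*-HCC library in the fourth of the 5 columns, called library 4 here, stood apart. It held 3.11 FPKM of the oncofetal marker *Afp*, against 735.79 to 1478.68 in the other 4, and 2444 FPKM of *Car3*, a carbonic anhydrase of adult hepatocytes, against 4.46 to 30.31. The fetal liver and liver tumor markers (*Afp*, *Gpc3*, *H19* and *Igf2*) were split in library 4. *Gpc3* was low there like *Afp*, at 0.28 FPKM against 0.71 to 10.58 in the other 4. Their sum was the highest of its group (21294 against 7999 to 13583 FPKM), nearly all of it *H19* and *Igf2*. The summed hepatocyte markers were also the highest of its group (8207 against 1906 to 5123 FPKM). How much of this library was tumor was not tested. It also had the highest summed endothelial markers (61.6 against 9.08 to 15.4 FPKM) and stellate markers (70.1 against 17.3 to 45.1 FPKM) of its group. It was the highest or lowest of all 10 libraries for 8 of the 15 genes tested, and for 41.0% of all genes. The next largest shares were those of *MYC*/*Twist1*-HCC replicate 5 (6 of the 15, 33% of all genes) and *MYC*-HCC library 2 (3 of the 15, 30.1%). Without library 4, 9.05% of all genes passed the threshold, and 1 of the 15 did so (*Pdgfa*, lower, where 4.72% of all genes were called lower). Differences that this library moved by more than 1.5 times or turned in direction are therefore given with and without it. Neutrophil and erythroid markers moved with the groups. Summed neutrophil markers were at 1.93 to 6.39 FPKM in *MYC*-HCC and 11.8 to 457 FPKM in *MYC*/*Twist1*-HCC (4 of 4 tested higher at an unadjusted p under 0.05, 0 called). Erythroid markers were at 22.0 to 87.6 and 91.8 to 1159 FPKM (4 of 4, 0 called). Platelet sums overlapped, at 0.700 to 1.71 and 0.850 to 42.2 FPKM (2 of 2, 0 called). Macrophage sums (71.7 to 157 and 73.2 to 203 FPKM) overlapped too, with 0 of 5 tested markers at that p. So did T, B and NK cell sums (0.790 to 1.16 and 0.860 to 2.80 FPKM), where only 1 of 6 markers was tested, with 0 at that p. In bulk tumor RNA, fewer cells of a type and less RNA per cell cannot be told apart, and the part of other cell types in the differences below was not tested.

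**Figure D1:**
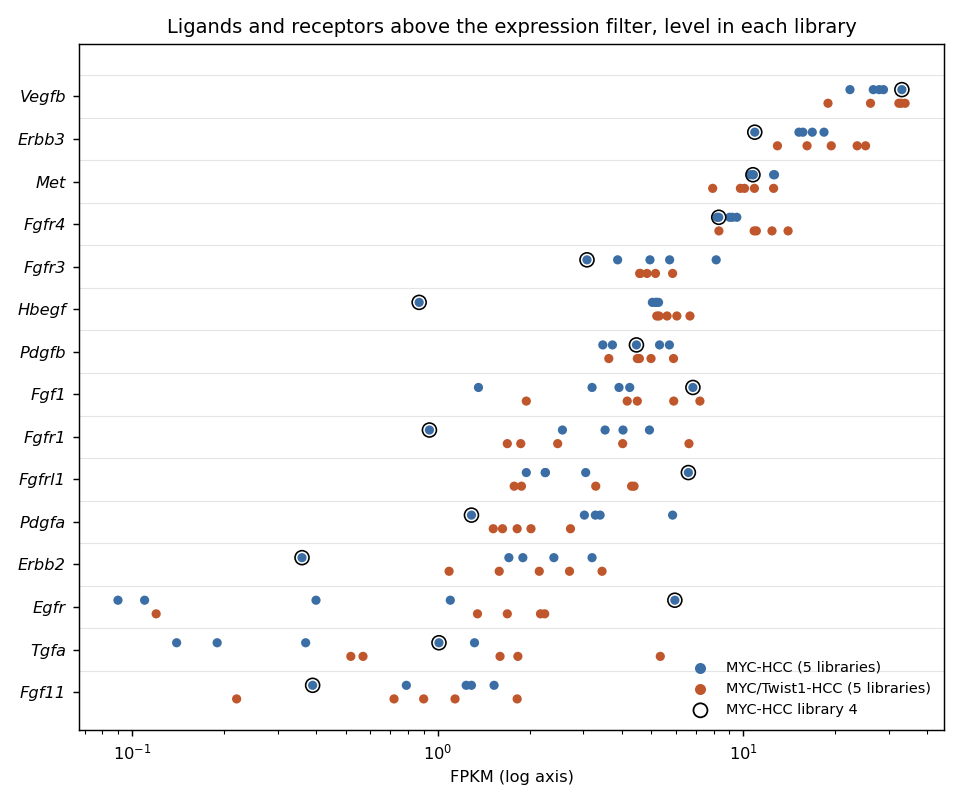
FPKM on a log axis of each of the 15 ligands and receptors above the expression filter, with 1 point per library, blue for *MYC*-HCC and orange for *MYC*/*Twist1*-HCC, and library 4 circled. For each gene the groups overlap, and library 4 lies apart from its group for *Egfr*, *Fgfrl1*, *Hbegf*, *Erbb2*, *Fgfr1* and *Pdgfa*.

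Since *MYC* and *Twist1* both encode basic helix-loop-helix factors, a class that binds the E-box CANNTG, the windows from 250 bases before to 50 bases after the transcription start were read from RefSeq (GRCm38.p6) and searched for it. The motif and its CACGTG form, the one *MYC* prefers with its partner MAX, read the same on both strands, and each CACGTG is also a CANNTG. Of the 42 genes, 31 had at least 1 window, 41 in all, and *Erbb3*, *Fgfr1* and *Pdgfb* were among those with none. CANNTG lay in 27 of the 41 windows (65.9%), against 72.3% of all 32851 windows of the table, and CACGTG in 4 (9.76% against 7.15%), those of *Met*, *Fgfr2*, *Fgfrl1* and *Fgf6*. Shown are the start of *Fgfr4*, the gene with an unadjusted p under 0.05 (chr13:55152568-55152867, plus strand), of *Met*, an expressed receptor with CACGTG (chr6:17463707-17464006, plus strand), and of *Tgfa* (chr6:86194972-86195271, plus strand) and *Egfr* (chr11:16751953-16752252, plus strand), the ligand and receptor that varied most between libraries among those above the filter. Capitals mark CANNTG, and the *Egfr* window holds none.
Fgfr4: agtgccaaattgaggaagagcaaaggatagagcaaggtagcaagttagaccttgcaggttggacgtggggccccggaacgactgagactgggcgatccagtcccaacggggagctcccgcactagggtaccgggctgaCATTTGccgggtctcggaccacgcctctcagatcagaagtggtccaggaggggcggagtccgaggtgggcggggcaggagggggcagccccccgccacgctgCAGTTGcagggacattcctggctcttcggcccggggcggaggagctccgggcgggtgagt
Met: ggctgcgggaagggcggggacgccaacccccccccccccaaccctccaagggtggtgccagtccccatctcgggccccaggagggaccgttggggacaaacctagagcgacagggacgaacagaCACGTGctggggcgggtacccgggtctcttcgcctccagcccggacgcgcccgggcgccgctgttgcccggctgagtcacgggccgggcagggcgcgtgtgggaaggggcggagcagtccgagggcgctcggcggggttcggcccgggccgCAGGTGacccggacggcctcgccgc
Tgfa: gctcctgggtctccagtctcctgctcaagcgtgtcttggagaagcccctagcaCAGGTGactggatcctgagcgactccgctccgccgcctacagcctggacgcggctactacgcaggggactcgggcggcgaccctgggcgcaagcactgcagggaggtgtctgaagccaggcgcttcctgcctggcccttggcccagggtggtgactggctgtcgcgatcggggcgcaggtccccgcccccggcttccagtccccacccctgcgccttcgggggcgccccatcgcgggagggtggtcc
Egfr: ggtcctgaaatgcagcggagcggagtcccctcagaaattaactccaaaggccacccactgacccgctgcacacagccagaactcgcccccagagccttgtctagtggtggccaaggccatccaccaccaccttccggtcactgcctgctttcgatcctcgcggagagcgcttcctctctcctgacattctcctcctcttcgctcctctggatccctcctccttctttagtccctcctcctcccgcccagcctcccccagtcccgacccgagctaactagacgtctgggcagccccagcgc

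A match is a description of the letters only. Of the 4 windows shown, those of *Met* and *Fgfr4* held 2 matches each, that of *Tgfa* 1 and that of *Egfr* 0. Whether matches go with level was not tested.

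Among the FGF receptors, *Fgfr4*, the hepatocyte receptor for FGF15, was the most abundant, and it had the smallest p of the 15 genes tested. *Fgfr4* (chromosome 13, 55152640 to 55168759, plus strand, in the GRCm38 gene models used throughout) was at 9.52, 9.02, 8.20, 8.31 and 9.20 FPKM in *MYC*-HCC libraries 1 to 5, and at 11.03, 12.41, 10.85, 8.32 and 14.01 FPKM in the *MYC*/*Twist1*-HCC replicates 1 to 5. Of the *MYC*/*Twist1*-HCC, 4 lay above every *MYC*-HCC, and replicate 4 lay within them. The means were 8.85 ± 0.573 and 11.3 ± 2.11 FPKM (SD, n = 5 each), a log2 difference of 0.33 (SE 0.15, 95% interval 0.01 to 0.66, unadjusted p = 0.0465, adjusted p = 0.300, limma). Without library 4 the log2 difference was 0.31 (adjusted p = 0.198). *Hnf4a*, a hepatocyte transcription factor, and *Alb*, *Apoa1* and *Fgb*, hepatocyte secretory products, were also higher at an unadjusted p under 0.05, with 0 of the 7 hepatocyte markers called. The summed hepatocyte markers ranged from 1906 to 8207 FPKM in *MYC*-HCC and from 4844 to 14110 FPKM in *MYC*/*Twist1*-HCC, with none of the markers at 0 everywhere.

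The other FGF receptors did not separate the groups. *Fgfr3* was at 3.08 to 8.15 FPKM in *MYC*-HCC and 4.58 to 5.87 FPKM in *MYC*/*Twist1*-HCC (log2 difference 0.03, 95% interval -0.49 to 0.55). *Fgfr1*, a receptor common in mesenchymal cells, was at 0.94 to 4.93 FPKM and 1.69 to 6.64 FPKM (0.05, -0.99 to 1.10). Library 4 was the lowest of all 10 for both, and both log2 differences were below 0 without it (-0.13 and -0.32). *Fgfrl1*, which binds FGFs but has no kinase domain, was at 1.95, 2.25, 2.25 and 3.05 FPKM in *MYC*-HCC libraries 1, 2, 3 and 5, and at 6.61 FPKM in library 4, the highest of all. In *MYC*/*Twist1*-HCC it was at 1.78 to 4.39 FPKM, with a log2 difference of 0.01 (-0.81 to 0.84) and of 0.30 without library 4 (adjusted p = 0.516).

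*Fgfr2* was too low for the filter in most libraries but spanned a wide range, and is singled out here after its values were seen. It was at 0.04, 0, 0.04, 0.79 and 0.26 FPKM in *MYC*-HCC and at 1.10, 1.16, 1.54, 0.14 and 0.27 FPKM in the *MYC*/*Twist1*-HCC. Replicates 1, 2 and 3 of *MYC*/*Twist1*-HCC held more than any *MYC*-HCC, and *MYC*-HCC libraries 1, 2 and 3 less than any of the other 7 libraries. With no filter, over 29038 genes, the log2 difference was 1.69 (unadjusted p = 0.0422, adjusted p = 0.478, limma). The *Fgfr2* model shares 314 exon bases on its own strand with *Ctbp2*, which was at 0.43 to 2.86 FPKM, so reads of the 2 genes may be split between them.

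The FGF ligands were low, with *Fgf1* the exception. *Fgf1*, a broad-spectrum FGF that binds every FGF receptor, was at 4.25, 1.36, 3.20, 6.84 and 3.92 FPKM in *MYC*-HCC and at 4.50, 7.21, 4.17, 1.95 and 5.92 FPKM in the *MYC*/*Twist1*-HCC. Both groups held a low and a high library, and the log2 difference was 0.32 (SE 0.43, 95% interval -0.63 to 1.27, adjusted p = 0.732), and 0.56 without library 4 (adjusted p = 0.374). *Fgf11*, an intracellular homologous factor that is not secreted, was at 1.24, 1.29, 1.53, 0.39 and 0.79 FPKM and at 1.14, 0.22, 0.90, 0.72 and 1.82 FPKM. Its log2 difference was -0.22 (SE 0.49, -1.29 to 0.86, adjusted p = 0.846), and -0.49 without library 4 (adjusted p = 0.488).

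Of the 21 FGF genes, 19 stayed under the filter. *Fgf23* is an endocrine FGF made by bone that controls phosphate. It was the more abundant of the endocrine members of the set, *Fgf15* and *Fgf23*, with *Fgf21* left out. *Fgf23* was listed at 0 in all 5 *MYC*-HCC. In *MYC*/*Twist1*-HCC it was at 0.24, 0, 0.08, 0.44 and 0 FPKM, an estimated 18 reads at most. It was thus above 0 in 3 of 5 *MYC*/*Twist1*-HCC, and with no filter the unadjusted p was 0.0393 and the adjusted p 0.472 (limma). *Fgf8* was likewise at 0 in *MYC*-HCC and reached 0.07 FPKM in *MYC*/*Twist1*-HCC, while *Fgf17* reached 0.06 FPKM in *MYC*-HCC and was at 0 in *MYC*/*Twist1*-HCC, in each case an estimated 2 reads at most (unadjusted p = 0.0325 and 0.0479 with no filter, adjusted p = 0.453 and 0.495, limma). With no filter, 37 genes of the set could be tested, 5 had an unadjusted p under 0.05 (*Fgf8*, *Fgf23*, *Fgfr2* and *Fgfr4* higher, *Fgf17* lower) and 0 were called. The share of all 29038 genes at that p was not counted, so the 5 cannot be read as many or few. *Fgf15*, the ileal hormone that signals to FGFR4, was at 0.02 FPKM or less, 1 read. *Fgf2*, a stromal and endothelial growth factor, was at 0.04 to 0.32 FPKM in *MYC*-HCC and 0.05 to 0.22 FPKM in *MYC*/*Twist1*-HCC, and *Fgf7*, a mesenchymal factor for epithelial FGFR2, at 0.03 to 0.13 and 0 to 0.11 FPKM. *Fgf22*, *Fgf18* and *Fgf12* reached 0.17, 0.13 and 0.08 FPKM. On the opposite strand, *Fgf2* shares 640 exon bases with *Nudt6* (0.33 to 1.2 FPKM) and *Fgf22* shares 82 with *Rnf126* (55.5 to 119.2 FPKM). Whether the libraries kept strand is not given in the sources used here. The part of these neighbors in the low *Fgf2* and *Fgf22* values was not tested. *Fgf3*, *Fgf9*, *Fgf10*, *Fgf13* and *Fgf14* stayed at 0.03 FPKM or less. *Fgf4*, *Fgf5*, *Fgf6*, *Fgf16* and *Fgf20* were listed at 0 in all 10 libraries. For scale, 3 reads at the lowest depth would be worth 0.0336 to 0.0952 FPKM for these genes. This is no detection limit, since other genes were listed at 1 or 2 reads. A level too low to give a read would also be listed at 0.

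**Figure D2:**
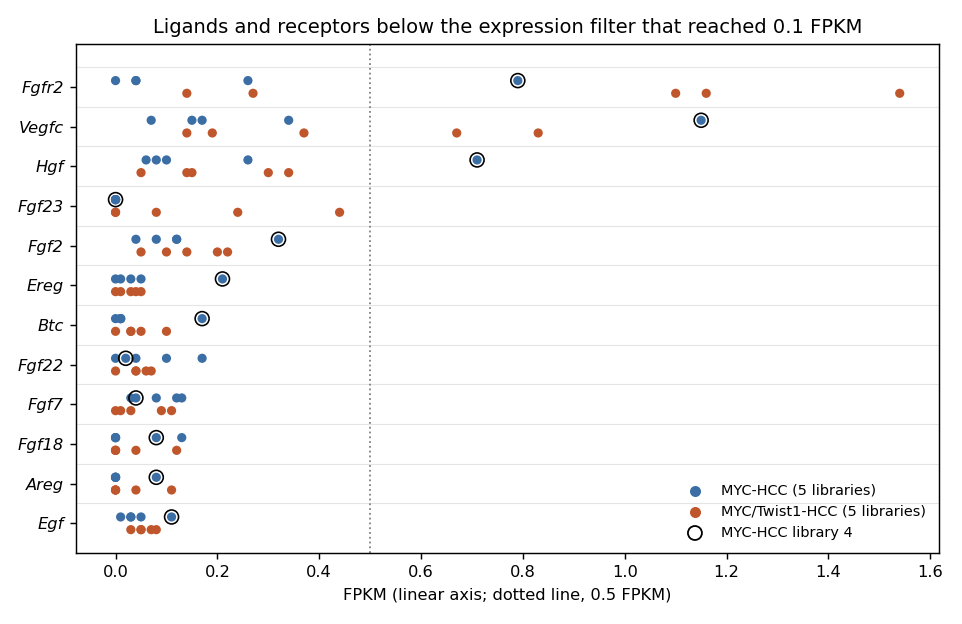
FPKM on a linear axis of the 12 ligands and receptors that stayed under the expression filter and reached 0.1 FPKM, 1 point per library, with library 4 circled and 0.5 FPKM dotted. *Fgfr2*, *Vegfc* and *Hgf* pass 0.5 FPKM in some libraries, and library 4 is the highest point for *Vegfc*, *Hgf*, *Fgf2*, *Ereg*, *Btc* and *Egf*.

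Among the ERBB receptors, *Erbb3*, a kinase-impaired chain that binds neuregulins and signals through its partners, was the most abundant. *Erbb3* (chromosome 10, 128567523 to 128589652, minus strand) was at 16.81, 15.20, 15.66, 10.90 and 18.36 FPKM in *MYC*-HCC and at 16.16, 23.57, 12.93, 19.39 and 25.11 FPKM in the *MYC*/*Twist1*-HCC. Replicates 2, 4 and 5 of *MYC*/*Twist1*-HCC lay above every *MYC*-HCC, and the rest overlapped. The log2 difference was 0.31 (SE 0.21, 95% interval -0.15 to 0.78, adjusted p = 0.459) and 0.20 without library 4, which was the lowest of all. *Erbb2*, the chain without a ligand of its own, was at 1.71, 1.90, 2.40, 0.36 and 3.20 FPKM and at 2.15, 1.59, 1.09, 2.70 and 3.45 FPKM. Its log2 difference was 0.34 (-0.77 to 1.45) and -0.13 without library 4. *Erbb4* was listed at 0 in 9 libraries and at 0.01 FPKM in library 4.

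*Egfr*, the receptor of EGF, TGF-alpha and amphiregulin, varied most of the 15 genes tested, 66.3-fold between the lowest and highest library. It is described here, with *Tgfa*, after its values were seen. It was at 0.40, 0.09, 0.11, 5.97 and 1.10 FPKM in *MYC*-HCC and at 2.17, 2.24, 0.12, 1.35 and 1.69 FPKM in the *MYC*/*Twist1*-HCC. Replicate 3 of *MYC*/*Twist1*-HCC and libraries 1, 2 and 3 of *MYC*-HCC were low, and library 4 was the highest, so the means hardly differed (1.53 ± 2.51 and 1.51 ± 0.860 FPKM, SD, n = 5 each). The log2 difference was 0.88 (SE 0.98, 95% interval -1.29 to 3.04, adjusted p = 0.674). Without library 4 it was 1.67 (-0.05 to 3.38, adjusted p = 0.171).

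The EGF-like ligands fell into *Hbegf*, *Tgfa* and the rest. *Hbegf*, the heparin-binding ligand of EGFR and ERBB4, was at 5.16, 5.28, 5.04, 0.87 and 5.21 FPKM in *MYC*-HCC and at 5.63, 5.21, 6.69, 6.06 and 5.30 FPKM in the *MYC*/*Twist1*-HCC. All libraries other than library 4 lay between 5.04 and 6.69 FPKM. The log2 difference was 0.64 with library 4 (SE 0.44, adjusted p = 0.472) and 0.15 without it (SE 0.12, 95% interval -0.12 to 0.42, adjusted p = 0.430). *Tgfa*, a membrane-anchored EGFR ligand that hepatocytes make in regeneration, was at 0.37, 0.19, 0.14, 1.01 and 1.32 FPKM in *MYC*-HCC and at 1.83, 5.35, 1.60, 0.52 and 0.57 FPKM in the *MYC*/*Twist1*-HCC. Replicates 1, 2 and 3 exceeded every *MYC*-HCC, replicates 4 and 5 did not, and *MYC*-HCC libraries 1, 2 and 3 were the lowest of the 10. The log2 difference of *Tgfa* was the largest of the 15 in size, 1.43 (SE 0.68, -0.08 to 2.94, adjusted p = 0.321), and 1.69 without library 4 (adjusted p = 0.136).

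*Egf*, *Areg*, *Ereg* and *Btc*, the other EGFR ligands of the set, stayed at 0.21 FPKM or less in every library. *Ereg* and *Btc* were highest in library 4, at 0.21 and 0.17 FPKM, and at 0.05 and 0.10 FPKM or less elsewhere. The libraries lowest in *Tgfa* and *Fgfr2*, *MYC*-HCC libraries 1, 2 and 3, had summed hepatocyte markers of 3965, 1906 and 3765 FPKM, against 4844 to 14110 FPKM in the other 7, and summed stellate markers of 17.3, 19.2 and 19.1 FPKM, against 4.29 to 70.1 FPKM. The stellate sum was lowest in *MYC*/*Twist1*-HCC replicate 2, where *Tgfa* was highest. The part of these cell types in the *Tgfa* and *Fgfr2* levels was not tested.

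**Figure D3:**
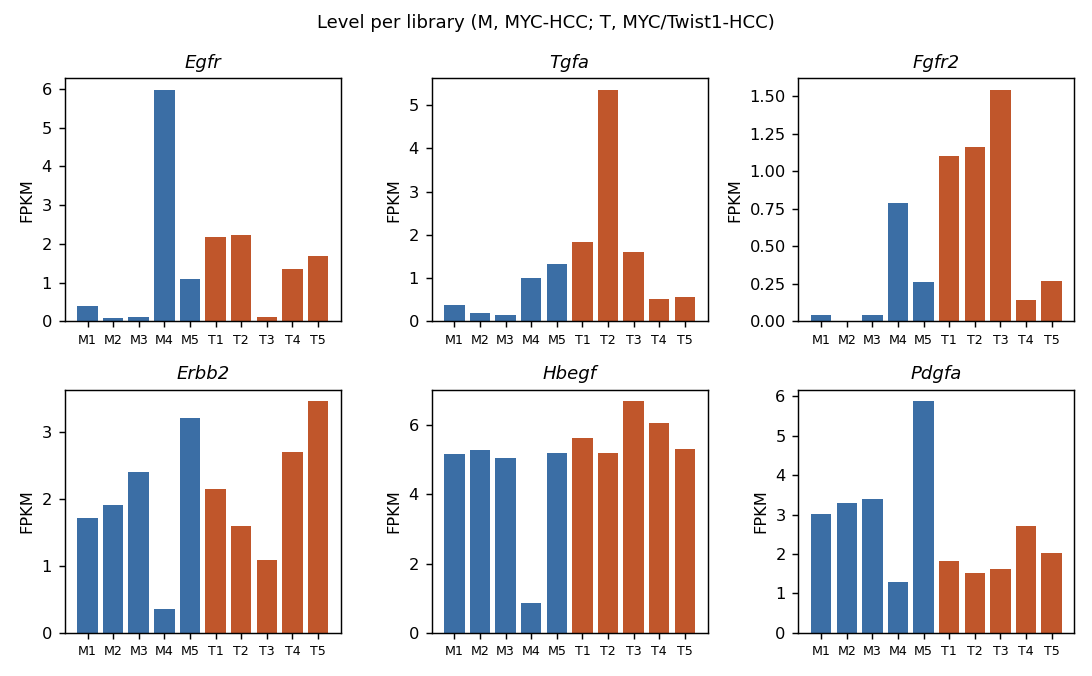
Bars give the FPKM of *Egfr*, *Tgfa*, *Fgfr2*, *Erbb2*, *Hbegf* and *Pdgfa* in each library, blue (M) for *MYC*-HCC and orange (T) for *MYC*/*Twist1*-HCC, on linear axes from 0. In M4, library 4, *Egfr* is highest and *Erbb2*, *Hbegf* and *Pdgfa* are lowest, whereas M1, M2 and M3 are lowest for *Tgfa* and *Fgfr2*.

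HGF and its receptor were uneven in level and alike in showing no separation of the groups. *Met* (chromosome 6, 17463800 to 17573980, plus strand) was at 12.65, 10.78, 10.57, 10.75 and 12.56 FPKM in *MYC*-HCC and at 10.87, 10.09, 9.78, 7.94 and 12.56 FPKM in the *MYC*/*Twist1*-HCC. It varied least of the 15 genes tested, 1.59-fold over all libraries, with means of 11.5 ± 1.05 and 10.2 ± 1.68 FPKM (SD, n = 5 each). The log2 difference was -0.17 (SE 0.14, 95% interval -0.48 to 0.14, adjusted p = 0.558), and -0.19 without library 4. *Hgf* was at 0.08, 0.06, 0.10, 0.71 and 0.26 FPKM in *MYC*-HCC and at 0.30, 0.05, 0.15, 0.14 and 0.34 FPKM in the *MYC*/*Twist1*-HCC. It was highest in library 4, which had the highest summed stellate markers (70.1 FPKM), and lowest in *MYC*/*Twist1*-HCC replicate 2, which had the lowest (4.29 FPKM).

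Of the VEGF and PDGF ligands, *Pdgfa*, which acts on PDGF receptors of mesenchymal cells, was the only one of the set to be called when 1 library was left out. *Pdgfa* (chromosome 5, 138976014 to 138997370, minus strand) was at 3.02, 3.28, 3.40, 1.29 and 5.87 FPKM in *MYC*-HCC and at 1.82, 1.52, 1.63, 2.72 and 2.02 FPKM in the *MYC*/*Twist1*-HCC. In 4 of the 5 *MYC*-HCC it lay above every *MYC*/*Twist1*-HCC, and library 4 lay below them all. With library 4 the log2 difference was -0.65 (SE 0.34, 95% interval -1.39 to 0.09, unadjusted p = 0.0805, adjusted p = 0.355). Without it *Pdgfa* fell by 0.94 on the log2 scale (SE 0.24, adjusted p = 0.0411), from 3.89 ± 1.33 FPKM (n = 4) to 1.94 ± 0.475 FPKM (SD, n = 5). The call was absent with any other single library left out. *Pdgfa* shares 813 exon bases with an opposite-strand gene at 0.09 to 0.24 FPKM, and whether the libraries kept strand is not given in the sources used here.

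*Vegfb*, a VEGFR1 ligand linked to fatty acid uptake, was the most abundant gene of the whole set. It was at 27.82, 26.61, 28.74, 33.01 and 22.33 FPKM in *MYC*-HCC and at 26.06, 32.85, 32.27, 33.82 and 18.92 FPKM in the *MYC*/*Twist1*-HCC, with a log2 difference of 0.03 (SE 0.18, 95% interval -0.37 to 0.44), and of 0.10 without library 4. *Pdgfb*, the ligand of PDGFR-beta on pericytes, ranged from 3.47 to 5.73 and from 3.63 to 5.91 FPKM (log2 difference 0.06, -0.35 to 0.47). *Vegfc*, a lymphatic growth factor below the filter, was at 0.07 to 0.34 FPKM in 4 *MYC*-HCC, at 1.15 FPKM in library 4 and at 0.14 to 0.83 FPKM in *MYC*/*Twist1*-HCC.

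**Figure D4:**
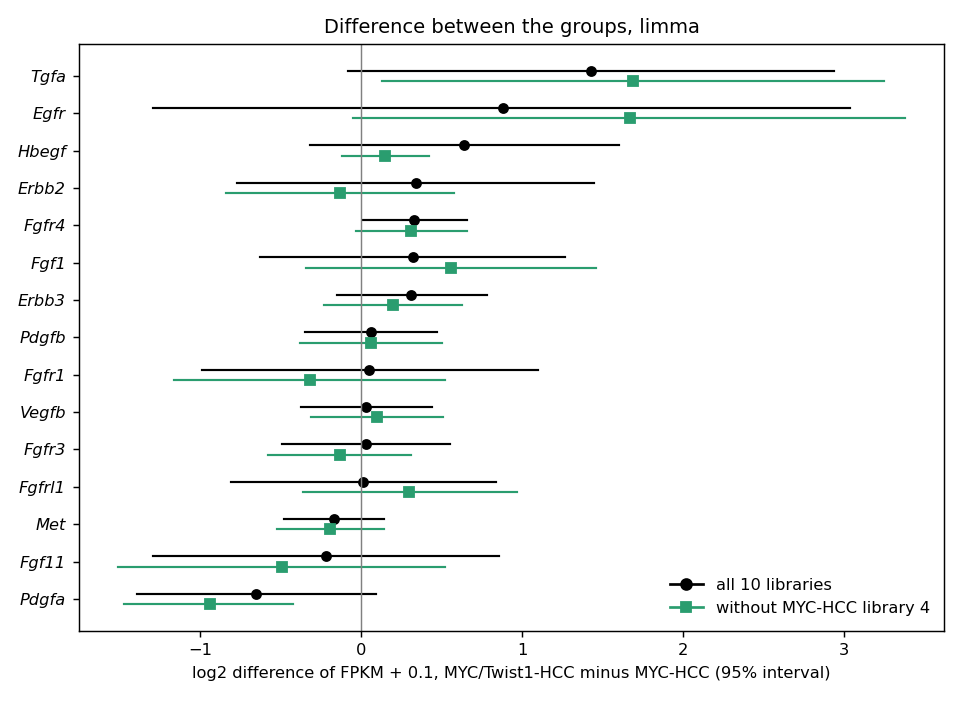
Log2 difference of FPKM + 0.1, *MYC*/*Twist1*-HCC minus *MYC*-HCC, with 95% intervals from limma, for the 15 genes tested, from all 10 libraries (black) and without library 4 (green). The interval lies above 0 for *Fgfr4* with all libraries and for *Tgfa* without library 4, and below 0 for *Pdgfa* without library 4. Only the last passed the adjusted threshold.

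The proteins that carry these signals were examined through 7 pathway lists of 107 genes, of which 105 were in the table and 82 were tested. None was called in all 10 libraries, at an unadjusted p under 0.05 the counts were 7 higher and 2 lower (11% of the 82, against 16.3% of all genes), and the median log2 difference was 0.17. Groups did not overlap for 1 of the 82 (1.22%, against 4.02% of all genes), *Mst1r*. *Mst1r*, the MET-related receptor RON, was at 0.71, 0.49, 0.53, 0.13 and 0.41 FPKM in *MYC*-HCC and at 1.04, 0.80, 1.32, 1.06 and 1.72 FPKM in the *MYC*/*Twist1*-HCC (log2 difference 1.29, SE 0.36, adjusted p = 0.153).

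Without library 4, 8 of the 82 were called (9.76%, against 9.05% of all genes), 6 higher and 2 lower. On the HGF side, *Mst1r*, its ligand *Mst1* and *Hgfac*, a serine protease that activates pro-HGF, rose by 1.0, 1.24 and 1.53 on the log2 scale (adjusted p = 0.0461, 0.0351 and 0.0210), while *St14*, the membrane protease matriptase, fell by 2.36 (adjusted p = 0.0478). With all libraries *Mst1* had 0.78 and *St14* -1.47 (adjusted p = 0.426 and 0.459). *St14* was at 2.21, 1.49, 5.89, 0.06 and 7.03 FPKM in *MYC*-HCC and at 0.24, 1.38, 0.15, 0.77 and 1.31 FPKM in the *MYC*/*Twist1*-HCC. Summed cholangiocyte markers were at 23.6, 19.4, 42.3, 10.1 and 51.7 FPKM in *MYC*-HCC libraries 1 to 5, ranked there as *St14* was, and at 5.96 to 34.5 FPKM in *MYC*/*Twist1*-HCC, and their part in the difference was not tested. *Hgfac* was at 2.66 to 5.74 FPKM in those 4 *MYC*-HCC, at 17.78 FPKM in library 4 and at 9.98 to 16.88 FPKM in *MYC*/*Twist1*-HCC. *Hpn*, another hepatocyte protease that cleaves pro-HGF, had a log2 difference of 0.55 with all libraries (adjusted p = 0.263). In the shared cascade, *Hras* fell by 0.77 without library 4 (adjusted p = 0.0429), and had -0.60 with all libraries (adjusted p = 0.252). *Pik3cb*, a PI3K catalytic subunit, had 0.58 with all libraries (adjusted p = 0.237), as did the docking protein *Gab2* (adjusted p = 0.418).

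Among FGF partners, *Sdc2*, a heparan sulfate proteoglycan, rose by 1.50 without library 4 (adjusted p = 0.0259), library 4 itself being the highest at 40.15 FPKM. *Gpc3*, a glypican re-expressed in liver cancer, was at 0.28 to 10.58 FPKM in *MYC*-HCC and 2.29 to 170.61 FPKM in *MYC*/*Twist1*-HCC (log2 difference 3.61, adjusted p = 0.225), and *Sdc4* had 0.88 (adjusted p = 0.422). Library 4 held 18.85 FPKM of *Sdc4* against 85.15 to 139.89 FPKM in the other *MYC*-HCC, and without it the log2 difference was 0.38 (adjusted p = 0.466). *Klb*, which encodes beta-Klotho and is named after its values were seen, was at 11.25 to 23.82 and 18.75 to 25.86 FPKM (log2 difference 0.28, adjusted p = 0.512, and 0.10 without library 4). The bile acid genes were listed for their tie to FGF15, and whether FGF15 acted on them here was not tested. Of these, *Nr0b2*, a nuclear receptor that represses *Cyp7a1*, rose by 3.91 without library 4 (adjusted p = 0.0357). It was at 0, 0, 0.05, 4.09 and 0.73 FPKM in *MYC*-HCC and at 3.80, 0.45, 14.80, 1.79 and 2.88 FPKM in the *MYC*/*Twist1*-HCC. At levels this low the size depends on the value added before the logarithm: over all libraries the log2 difference was 3.01 with 0.1 FPKM added, 1.40 with 1 FPKM and 4.56 with 0.01 FPKM. *Cyp8b1* had a log2 difference of 1.12 with all libraries and of 1.78 without library 4 (adjusted p = 0.0540). *Cyp7a1*, the rate-limiting enzyme of bile acid synthesis, had -0.94 with all libraries. *Cyp7a1* was at 58.52 FPKM in library 4, at 0.11 to 2.43 FPKM in the other *MYC*-HCC and at 0.46 to 1.87 FPKM in *MYC*/*Twist1*-HCC, and without library 4 its log2 difference was 0.24.

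Of the ERBB partners, *Cblb*, a ubiquitin ligase that turns receptors over, rose by 0.76 without library 4 (adjusted p = 0.0367), and the sheddases *Adam10* and *Adam17* had log2 differences of -0.22 and -0.15 with all libraries. Of the VEGF and PDGF partners, the co-receptor *Nrp2* had -1.49 (adjusted p = 0.225), and *Flt1*, the VEGFB receptor, and *Pdgfc* had 0.40 and 0.34. Without library 4, *Flt1* had 0.77 (adjusted p = 0.0675). The ERK feedback genes had 0 calls with or without library 4. *Dusp6*, an ERK phosphatase, was at 2.26 to 6.68 FPKM in *MYC*-HCC and 4.19 to 13.89 FPKM in *MYC*/*Twist1*-HCC (log2 difference 0.84, adjusted p = 0.306). *Spred2* and *Spry1*, inhibitors of the cascade, had 0.60 and 0.30.

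**Figure D5:**
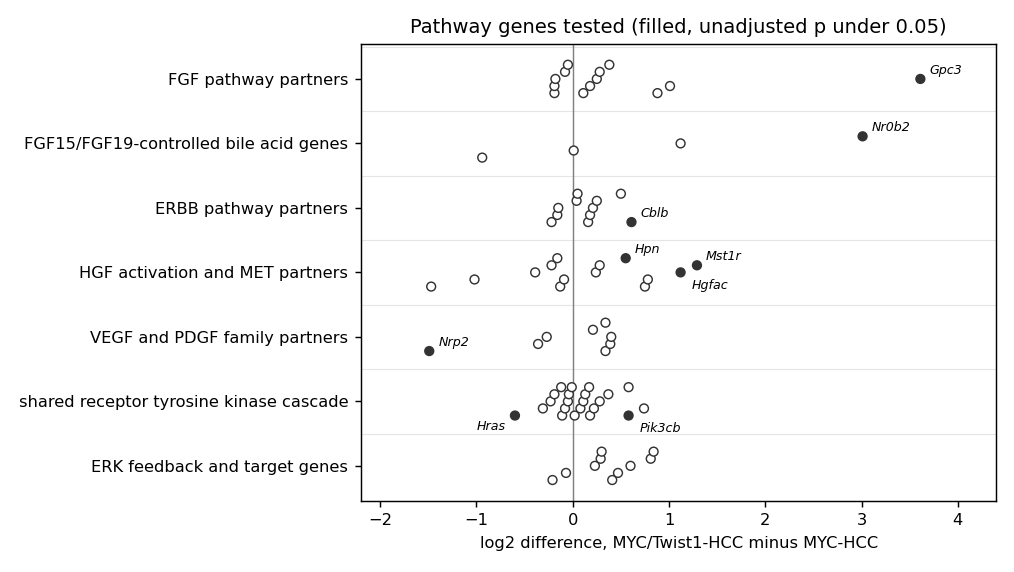
Log2 difference, *MYC*/*Twist1*-HCC minus *MYC*-HCC, over all 10 libraries, of the 82 pathway genes tested, 1 circle per gene and 1 row per list, filled and named where the unadjusted p was under 0.05. *Gpc3* (3.61) and *Nr0b2* (3.01) lie farthest to the right and *Nrp2* (-1.49) farthest to the left, and none passed the adjusted threshold.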

How the data were processed

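Liver tumors had been flash frozen, total RNA extracted with a Qiagen kit and libraries made by standard BGI protocols. The FPKM table was deposited by the authors. The study's methods name RSEM, and the submitters' notes list, without versions, mm10, STAR, featureCounts, Trimmomatic, Picard and DESeq2, so the counting tool behind the FPKM is not settled. Within 0.1 read, 99.49 to 100% of the values checked were whole reads, from which depth was estimated with GENCODE exon lengths (48001 of 52459 genes matched). The 5 *MYC*-HCC columns share 1 heading and are numbered here by column.

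log2(FPKM + 0.1) was tested with limma 3.58.1 (R 4.3.3; trend, two-sided, Benjamini-Hochberg over the 12146 genes that reached 0.5 FPKM in 5 or more libraries, threshold 0.05), after a test on simulated data. Fold changes on this scale understate the change of low genes. Groups came from sample titles. The labels do not say that samples came from separate animals, so p-values measure only the spread between these samples. The genes, lists and markers were chosen with earlier results of these data known. Of the ligands and receptors, per-library values are given for genes with an unadjusted p under 0.05, genes called without any 1 library, genes with non-overlapping groups, and the highest gene of each role; those of *Egfr*, *Erbb2*, *Tgfa*, *Fgfr2*, *Fgfrl1* and *Hgf* were added after their values were seen. Of each pathway list, called genes and up to 3 with the smallest p are named. Alternatives were added values of 1 and 0.01 FPKM, a filter on a mean of 1 FPKM or none, median-ratio and quantile scaling, no trend, quality weights and leaving out each library. A gene of the pathway lists is not reported here and was left out of their counts.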

Additional observations from a re-analysis of the deposited data

Results flagged for a closer look

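In 36 groups of 5 libraries, the gap from the highest or lowest library to its neighbour was set against Dixon's 95% critical value, 0.71 of the range. That value flags about 1 in 20 groups only if values are independent and normally distributed. These were untransformed FPKM, and the groups share the same libraries, so 1 in 20 is no fair benchmark here. The gap was larger in 5 of the 36 groups. Of these, 4 were *MYC*-HCC library 4: *Egfr* at 5.97 FPKM (gap 0.828 of the range), *Fgfrl1* at 6.61 FPKM (0.764) and *Vegfc* at 1.15 FPKM (0.750) as the highest, and *Hbegf* at 0.87 FPKM (0.946) as the lowest. The other was *Tgfa* in *MYC*/*Twist1*-HCC replicate 2, the highest of its group at 5.35 FPKM (0.729).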

How the results depend on the processing

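Over 18 alternatives, the 15 ligands and receptors tested gave 270 values, of which 243 kept their direction and side of the threshold, 25 turned direction and 2 newly passed the threshold (*Pdgfa* without *MYC*-HCC library 4 and with quality weights). With quality weights, 1 gene of the set was called lower (*Pdgfa*, log2 -0.76, adjusted p = 0.0395), 9 pathway genes higher and 4 lower, and 1008 genes of all higher and 1469 lower. Library 4 had the lowest of these weights, 0.184, against 0.599 to 4.02 in the other libraries. The weighted fit is thus not independent of the fit without library 4. With 1 or 0.01 FPKM added, 5 and 1 genes of all were higher. *Fgfr1* and *Fgfr3* turned to -0.11 and -0.15 with quality weights, and *Fgfrl1* to -0.05 with quantile scaling. With each library left out in turn, 0 to 1 of the set were lower, 0 to 6 pathway genes higher and 0 to 2 lower, and 1 to 526 genes of all higher and 0 to 573 lower, the highest counts being those without library 4. The log2 differences then ranged from -0.13 to 0.58 for *Erbb2*, 0.00 to 0.60 for *Fgf1*, -0.49 to 0.16 for *Fgf11*, -0.32 to 0.25 for *Fgfr1*, -0.13 to 0.21 for *Fgfr3*, -0.13 to 0.30 for *Fgfrl1*, -0.03 to 0.15 for *Pdgfb*, -0.04 to 0.18 for *Vegfb* and -1.80 to 0.24 for *Cyp7a1*. The cause was not tested. No paired analysis was possible because the *MYC*-HCC columns carry no replicate numbers. Neither the labels nor the study's methods describe *MYC*-HCC and *MYC*/*Twist1*-HCC as paired, so a shared replicate number would not by itself mark a pair. The 5 libraries a group limit the precision, and most of the low ligands rest on few reads.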
